A study of Mus musculus with 6 samples.

Results

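Translation initiation and elongation factors were followed in CD8+ T cells that had been primed with antigen and IL-12, primed with antigen and IL-2, or left naive. The genes were taken by symbol, as initiation factors of the eIF1 to eIF6 families and elongation factors of the eEF1 and eEF2 families, without kinases of eIF2, binding proteins of eIF4E and the Y-linked copies. The rule reads symbols and no expression value. The rule gave 54 of the 19938 genes that had a probe set with a single symbol, and 52 of them were among the 11147 genes bright enough to be tested. Eef1akmt3 (5.70 to 6.03 on a log2 scale over the 6 arrays) and Eif4a3l1 (5.60 to 5.87) were too dim to be tested. Eif1, Eif2s1, Eif3g, Eif3j1, Eif3j2, Eif4g1, Eef1g and Eef1akmt4 were not analysed here.

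All cells came from spleens of female C57BL/6 mice that carry the Pmel-1 T cell receptor transgene, whose receptor recognises gp100, an antigen of melanoma and melanocytes. The controls therefore carried the transgene too. IL-12 cells had gp100 for 4 days and IL-12 for 6 days, and IL-2 cells had gp100 for 4 days and IL-2 for 6 days. Naive cells were taken fresh from the spleen and sorted as CD8+ Thy1.1+, and each group had 2 Affymetrix arrays. No sort is named for the cytokine-primed cells. The age of the mice, and whether both arrays of 1 group stem from different mice or cultures, are not given in the sources used here. The p-values therefore measure the spread between arrays, which may be technical, and the small number of arrays limits the precision of every value. Neither primed group differs from naive cells by cytokine alone, because antigen, culture and time differ as well.

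The label was checked against marker genes. The 7 CD8 T cell markers with a probe set had a summed level (log2 of the sum of linear values) of 15.07 to 15.11 in IL-12 cells, 15.43 to 15.47 in IL-2 cells and 15.40 to 15.54 in naive cells. Of these 7, 4 were lower in IL-12 than in IL-2 cells and 5 lower in IL-12 than in naive cells, with 1 above and 1 below for IL-2 against naive cells. Cd8a read 12.12 to 12.66 over all arrays. The summed level of 8 B cell markers was 11.15 on both IL-12 arrays, 10.06 to 10.07 in IL-2 cells and 12.27 to 12.30 in naive cells. Of these 8, 6 were higher in IL-12 than in IL-2 cells and all were lower in each primed group than in naive cells. For 7 myeloid and dendritic markers it was 9.82 to 9.85 in IL-12 cells, 9.43 to 9.65 in IL-2 cells and 11.36 to 11.56 in naive cells. Of these 7, 2 were higher in IL-12 than in IL-2 cells, 6 were lower in IL-2 cells than in naive cells, and 5 were lower and 1 higher in IL-12 than in naive cells. The higher one was Itgam, which read 7.41 and 7.63 in IL-12 cells, 6.55 and 6.59 in IL-2 cells and 6.19 and 6.44 in naive cells. The 5 cycling-cell markers gave 14.23 to 14.31, 14.20 to 14.31 and 9.76 to 9.95 in the same order, with all 5 higher in each primed group than in naive cells and none called between the cytokines. The summed level of 3 CD4 T cell markers was 9.31 to 9.42 in IL-12 cells, 9.53 to 9.63 in IL-2 cells and 8.61 to 8.62 in naive cells. Of the 2 tested, Zbtb7b was higher in each primed group than in naive cells, with 8.87 and 8.62 in IL-12 cells, 9.01 and 9.15 in IL-2 cells and 7.01 and 7.41 in naive cells. Cd4 itself, both NK cell markers and Alas2, the 1 erythroid marker measured, were below the filter. The part of these cell types and of cell division in the differences described here was not tested, and in bulk RNA fewer cells of a type and less RNA per cell cannot be told apart.

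Protein synthesis starts when eIF2, bound to GTP and the initiator tRNA, joins the small ribosomal subunit with eIF1, eIF1A, eIF3 and eIF5, while the eIF4 factors bind the mRNA cap and unwind the leader. eIF2B recharges eIF2 with GTP, eIF5B joins the large subunit, eEF1 brings each aminoacyl-tRNA and eEF2 moves the ribosome along. T cells enlarge and raise protein synthesis when antigen activates them, and mTORC1, the nutrient and growth factor kinase complex, controls much of that rise. The mRNAs of ribosomal proteins, most eEF1 and eEF2 subunits and a few initiation factors begin with a run of pyrimidines, the 5′ terminal oligopyrimidine (TOP) motif. Their translation is under mTORC1 and the RNA-binding protein Larp1. Among the genes measured here, 8 factors were counted as that class: Eef1a1, Eef1b2, Eef1d, Eef2, Eif3e, Eif3f, Eif3h and Eif4b. They come from a list set by prior knowledge of the motif, not from the sequences below. The list was set with earlier results of these data known, and it may be incomplete.

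The letters around the annotated start were read for runs of pyrimidines, because a run at the first bases of the mRNA is what names the TOP class. RefSeq promoter windows (build GRCm38.p6, from 250 bases before to 50 bases after an annotated start) were at hand for 42 of the 54 genes, 5 of them TOP factors. Each line gives 30 bases before and 25 bases from the start onward on the transcript strand, 5′ to 3′, and capitals mark the longest run of a C followed by 4 or more C or T that begins within 20 bases of the start. First come the 5 TOP factors, at chr9:78481700-78481754 (minus strand), chr1:63176801-63176855 (plus), chr10:81176601-81176655 (plus), chr7:108934385-108934439 (plus) and chr15:102073743-102073797 (plus).
Eef1a1: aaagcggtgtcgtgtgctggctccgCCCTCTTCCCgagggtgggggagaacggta
Eef1b2: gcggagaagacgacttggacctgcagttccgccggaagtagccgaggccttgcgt
Eef2: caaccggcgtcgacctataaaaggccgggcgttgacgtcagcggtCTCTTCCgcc
Eif3f: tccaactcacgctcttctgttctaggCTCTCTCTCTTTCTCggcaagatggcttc
Eif4b: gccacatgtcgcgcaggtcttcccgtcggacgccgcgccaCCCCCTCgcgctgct
Next come 4 factors outside the class that are described below, Eif2b1 at chr5:124579107-124579161 (minus), Eif2a at chr3:58525791-58525845 (plus), Eif3b at chr5:140419275-140419329 (plus) and Eif1ax at chrX:159372148-159372202 (plus).
Eif2b1: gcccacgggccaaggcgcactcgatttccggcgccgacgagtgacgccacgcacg
Eif2a: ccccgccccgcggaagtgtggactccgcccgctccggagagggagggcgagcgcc
Eif3b: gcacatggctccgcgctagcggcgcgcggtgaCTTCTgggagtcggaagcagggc
Eif1ax: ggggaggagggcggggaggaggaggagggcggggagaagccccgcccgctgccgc
Such a run lay within 20 bases of the start in 4 of the 5 TOP factors, in 17 of the 37 other factors (45.9%) and in 53.3% of all 27025 genes with a window. Its presence is thus common. The letters from the annotated start onward were a C followed by 4 or more C or T in 1 TOP factor (Eif3f, whose marked run begins before the start), in 1 other factor (Eif2s3x) and in 3.01% of all genes. In Eef2 and Eif4b the marked run begins downstream of the annotated start, and Eef1b2 has none. Annotated starts can lie some bases from the true ones, and a match or its absence here describes letters only.

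Across the 52 tested factors, IL-12 cells and IL-2 cells both had more factors above naive cells than below. Against naive cells, 29 factors were higher and 4 lower in IL-12 cells, beside 31.2% of all tested genes higher and 26.7% lower (57.9% called either way). The median log2 fold change was 0.44 over the factors and 0.04 over all genes. In IL-2 against naive cells 21 factors were higher and 4 lower, beside 25.8% and 19.9% of all genes (45.7% either way), with medians of 0.23 and 0.01. Between the cytokines, 9 factors were higher in IL-12 than in IL-2 cells and none was lower, beside 9.82% of all genes higher and 11.0% lower (20.8% either way), with medians of 0.16 and 0.02. At an unadjusted p under 0.05 limma counted 17 factors higher and 0 lower in that comparison, beside 1915 higher and 2008 lower of all 11147 tested genes. The share of factors called either way was 63.5%, 48.1% and 17.3% in the 3 comparisons in the order given, near the share of all genes each time, whereas the calls lay mostly or wholly on the higher side. Both comparisons with naive cells use the same naive arrays, and both comparisons of IL-12 cells use the same IL-12 arrays.

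Fewer calls passed between the cytokines when 1 primed array was left out. Left out in turn, the arrays changed the 9 factors higher in IL-12 than in IL-2 cells to 3 without IL-12 replicate 1, 1 without IL-12 replicate 2, 3 without IL-2 replicate 1, 0 without IL-2 replicate 2, and 16 without either naive array. None of the 9 calls was kept in all of these fits, while their log2 fold changes stayed positive, at 0.67 to 1.33 times the value with all arrays. Over all genes, the 1095 higher in IL-12 than in IL-2 cells became 613 without IL-12 replicate 1, 481 without IL-12 replicate 2, 462 without IL-2 replicate 1 and 338 without IL-2 replicate 2. A lost call therefore does not show that 1 array carried the difference. Against naive cells, 25 of 33 calls of IL-12 cells and 13 of 25 of IL-2 cells were kept. The factors higher in IL-2 cells than in naive cells numbered 10 without IL-2 replicate 1. Replicates also differed for the factors as a set. Naive replicate 2 read above naive replicate 1 for 41 of 52 factors (median difference 0.13, against 0.07 over all genes), and IL-2 replicate 2 above IL-2 replicate 1 for 11 of 52 (median −0.05, against 0.01 over all genes).

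**Figure D1:**
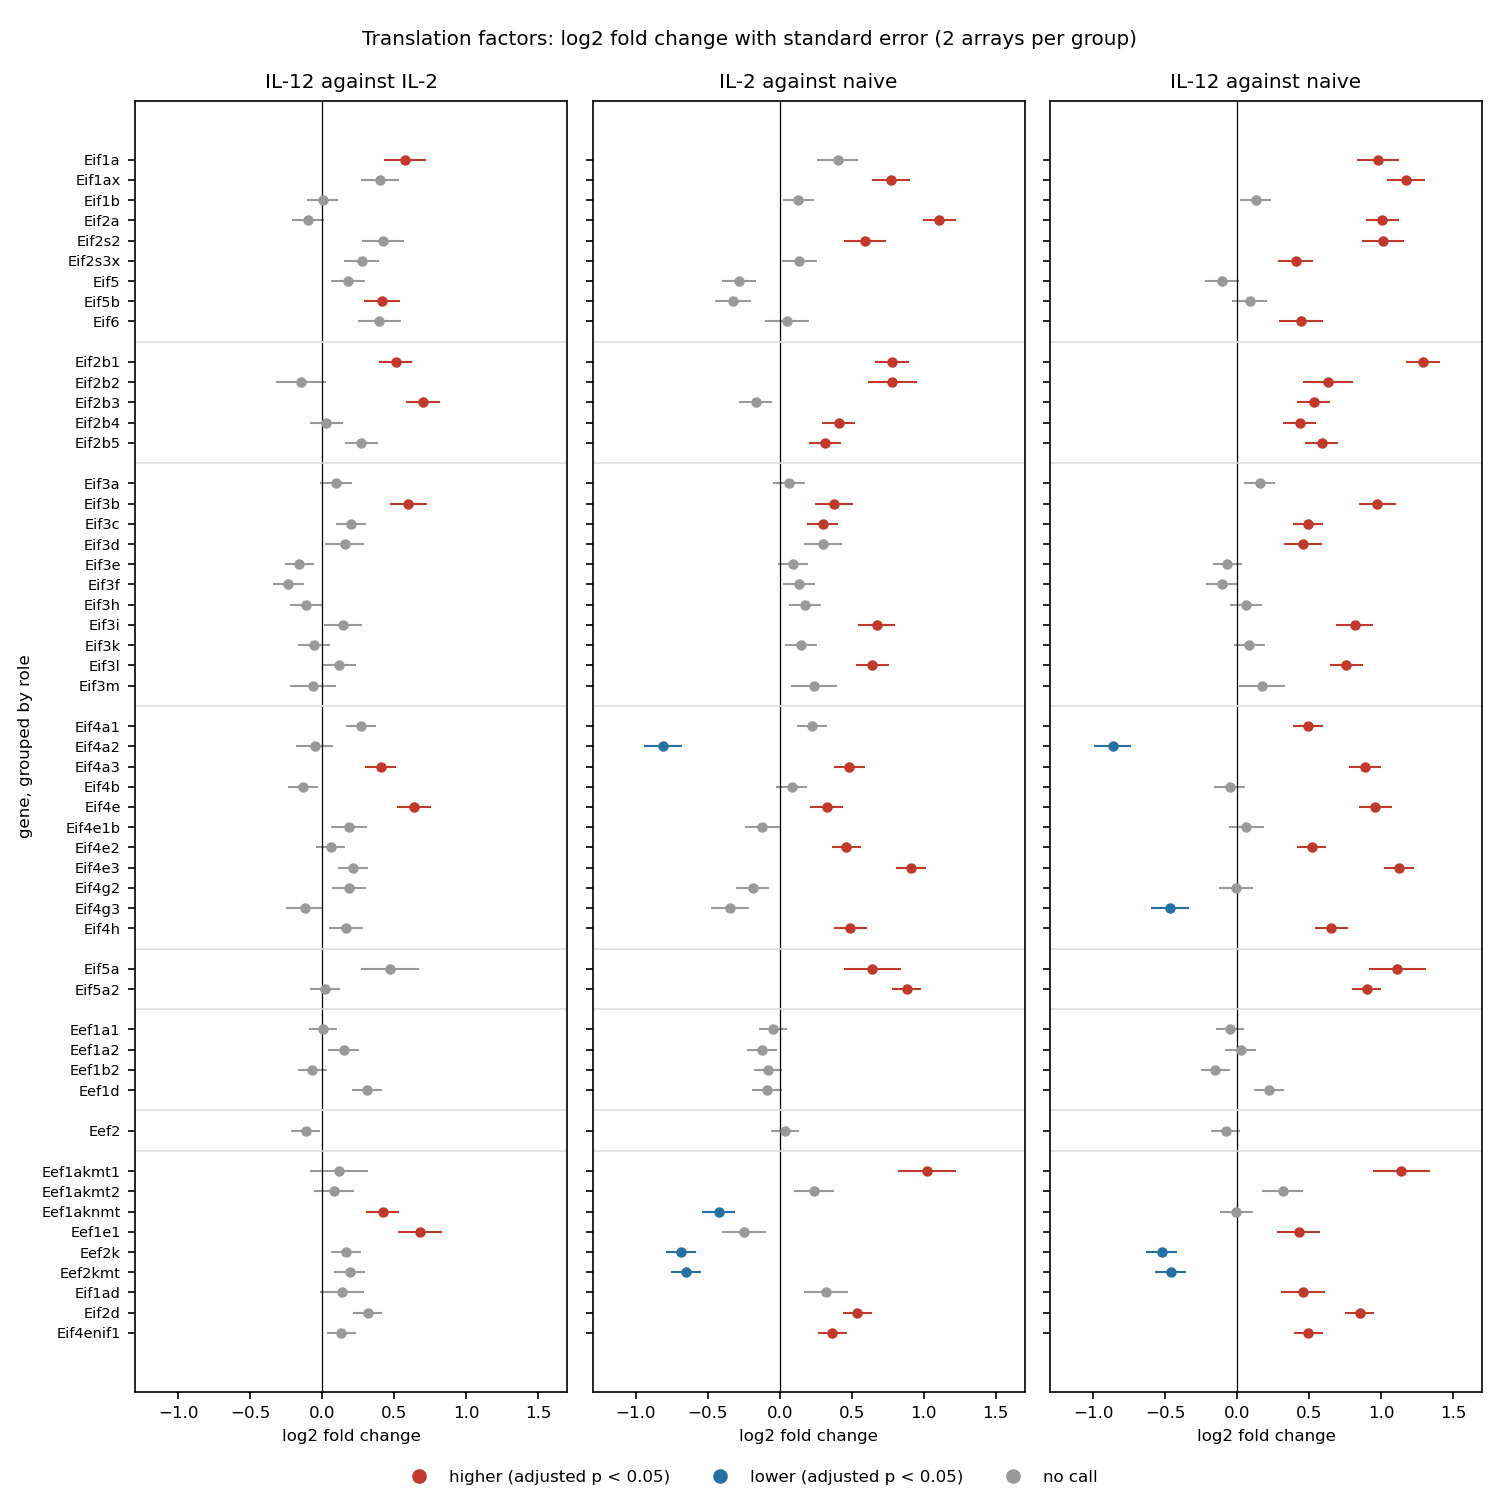
Log2 fold change (x axis) with its standard error for the 52 tested factors, grouped by role down the page, in IL-12 against IL-2, IL-2 against naive and IL-12 against naive cells. Red points are higher and blue points lower at a limma adjusted p under 0.05. The left panel holds 9 red and 0 blue points, and the right panel 29 red and 4 blue ones.

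The probe sets used for 5 factors need care, because they stand in the numbering of the array among probe sets of another chromosome than their gene's. These factors are Eif4e, Eif5a, Eif4a1, Eif2s2 and Eif3m, and each of these genes also has a probe set among neighbours of its own chromosome. The check was made after the data had been seen. For Eif4e, the gene on chromosome 3, 18 of 19 neighbours with a known chromosome lay on X. With its brighter own-chromosome probe set the log2 fold change of Eif4e was 0.18 in IL-12 against IL-2 cells (adjusted p = 0.294), −0.55 in IL-2 against naive cells (adjusted p = 0.00441) and −0.37 in IL-12 against naive cells (adjusted p = 0.022), so both directions against naive cells turned. The counts above and below include Eif4e as the probe set used gave it, except where another choice of probe sets is named. For Eif5a, Eif4a1 and Eif2s2 the other probe sets moved the same way as the used one, and Eif3m was not called by either. The difference of Eif5a was smaller on its chromosome 11 probe set, at 0.45 against 1.11 for IL-12 over naive cells.

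**Figure D2:**
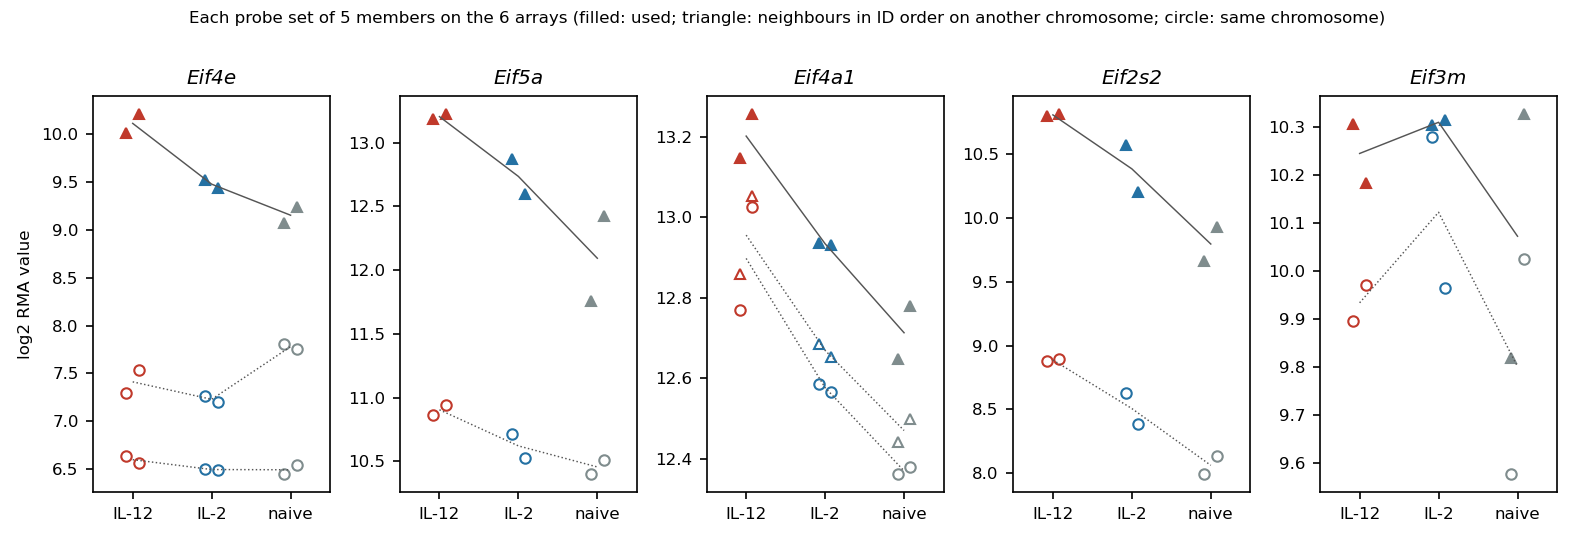
Log2 value (y axis) of each probe set of Eif4e, Eif5a, Eif4a1, Eif2s2 and Eif3m on the 6 arrays, in IL-12, IL-2 and naive cells. Filled symbols are the probe sets used, triangles those whose neighbours lie on another chromosome, circles those whose neighbours lie on the gene's own. For Eif4e the filled triangles are lowest in naive cells, and the upper open circles are highest there (7.81 and 7.75).

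A group of 9 tested factors loads the small subunit, selects the start codon or, as Eif5b and Eif6, acts in subunit joining. Of these 9, 6 were higher in IL-12 than in naive cells (66.7%, beside 31.2% of all tested genes). The median log2 fold change was 0.44, the same as over all 52 factors. Also, 3 were higher in IL-2 cells than in naive cells (33.3%, against 40.4% of all factors and 25.8% of all genes, median 0.14). Between the cytokines, 2 were higher in IL-12 than in IL-2 cells (22.2%, beside 9.82% of all genes, median 0.39). None was called lower in any comparison. Eif1ax, the X-linked gene for the scanning factor eIF1A, read 10.43 and 10.59 in IL-12 cells, 10.15 and 10.08 in IL-2 cells and 9.18 and 9.51 in naive cells. Its 3 groups did not overlap. It was higher than in naive cells by a log2 fold change of 1.17 ± 0.13 in IL-12 cells (SE, adjusted p = 9.22e-05) and of 0.77 ± 0.13 in IL-2 cells (adjusted p = 0.00163). Eif1a, a second eIF1A gene, read 9.46 and 9.47 in IL-12 cells, 8.92 and 8.86 in IL-2 cells and 8.26 and 8.71 in naive cells. Its groups stood in the same order, with 0.58 ± 0.15 for IL-12 over IL-2 cells (adjusted p = 0.0244, up to 0.151 without 1 array and lost without any of the 4 primed arrays) and 0.98 ± 0.15 over naive cells (adjusted p = 0.000481). Eif2a encodes eIF2A, a separate protein that can deliver initiator tRNA and is not the alpha subunit of eIF2. It read 10.54 and 10.57 in IL-12 cells, 10.77 and 10.54 in IL-2 cells and 9.52 and 9.58 in naive cells, so both primed groups lay about 1 log2 unit above naive cells and overlapped each other. The log2 fold change was 1.01 ± 0.11 in IL-12 cells (adjusted p = 8.62e-05) and 1.11 ± 0.11 in IL-2 cells (adjusted p = 7.94e-05). IL-12 against IL-2 gave −0.10 with a 95% interval of −0.35 to 0.16.

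Of the eIF2 subunits, Eif2s2 and Eif2s3x were analysed here, and both were higher in IL-12 than in naive cells. Eif2s2, the beta subunit, read 10.80 and 10.82 in IL-12 cells, 10.57 and 10.20 in IL-2 cells and 9.66 and 9.93 in naive cells. It was higher than in naive cells by 1.01 ± 0.15 in IL-12 cells (adjusted p = 0.000398) and by 0.59 ± 0.15 in IL-2 cells (adjusted p = 0.0102, but 0.0524 without naive replicate 1 and 0.101 without IL-2 replicate 1). Its probe set on chromosome 2 gave differences of 0.83 and 0.45. Eif2s3x, the gamma subunit that holds GTP, was higher in IL-12 than in naive cells by 0.41 ± 0.12 (adjusted p = 0.0177, but 0.0647 without naive replicate 1 and 0.11 without IL-12 replicate 2). In IL-2 against naive cells Eif2s3x did not pass (0.13, adjusted p = 0.395). Eif6, which keeps the large subunit from joining too early, read 11.85 and 11.66 in IL-12 cells, 11.41 and 11.31 in IL-2 cells and 11.10 and 11.53 in naive cells. The naive arrays spanned the IL-2 arrays. Its rise over naive cells in IL-12 cells (0.44 ± 0.15, adjusted p = 0.0314) was lost without naive replicate 1 (0.146), IL-12 replicate 1 (0.17) or either IL-2 array (0.0529). Eif5b, the GTPase of subunit joining, departed from this order with 8.65 and 8.76 in IL-12 cells, 8.43 and 8.15 in IL-2 cells and 8.56 and 8.67 in naive cells. For Eif5b, neither IL-2 against naive cells (−0.33, adjusted p = 0.0578) nor IL-12 against naive cells (0.09, adjusted p = 0.574) passed. IL-2 cells read lowest. IL-12 cells were higher by 0.41 ± 0.12 (adjusted p = 0.0451, up to 0.317 without 1 array and lost without any of the 4 primed arrays). Eif1b, a relative of the start codon fidelity factor eIF1, and Eif5, the protein that triggers GTP hydrolysis by eIF2, passed no test with the main settings. After quantile normalization Eif5 was lower in IL-2 cells than in naive cells (−0.39, adjusted p = 0.0266).

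All 5 subunits of eIF2B, the exchange factor that recharges eIF2, were higher in IL-12 than in naive cells (median log2 fold change 0.59), 4 of 5 were higher in IL-2 cells than in naive cells (median 0.41) and 2 were higher in IL-12 than in IL-2 cells (median 0.27). The shares were 100%, 80% and 40%, beside 31.2%, 25.8% and 9.82% of all tested genes. Eif2b1, the alpha subunit, read 9.70 and 9.69 in IL-12 cells, 9.25 and 9.13 in IL-2 cells and 8.28 and 8.53 in naive cells. The 3 groups were fully apart. Its 2.44-fold excess in IL-12 over naive cells (log2 fold change 1.29 ± 0.12, adjusted p = 2.61e-05) was the highest fold change of any factor in that comparison. It also stood 0.78 ± 0.12 above naive cells in IL-2 cells (adjusted p = 0.000816) and 0.51 ± 0.12 higher in IL-12 than in IL-2 cells (adjusted p = 0.0175, up to 0.15 without 1 array and lost without any of the 4 primed arrays). Eif2b3, the gamma subunit, which forms the catalytic part with the epsilon subunit, read 9.40 and 9.66 in IL-12 cells, 8.86 and 8.81 in IL-2 cells and 9.009 and 8.995 in naive cells. Here IL-2 cells did not exceed naive cells (−0.17 ± 0.12, adjusted p = 0.272), and IL-12 exceeded IL-2 by 0.70 ± 0.12 (adjusted p = 0.00403), the highest value of any factor between the cytokines. It had an adjusted p of 0.0508 without IL-2 replicate 2. Eif2b2, the beta subunit, read 10.39 and 10.19 in IL-12 cells, 10.47 and 10.41 in IL-2 cells and 9.39 and 9.93 in naive cells. Both primed groups were above naive cells, by 0.63 ± 0.17 in IL-12 cells (adjusted p = 0.0117, but 0.0767 without IL-12 replicate 1) and 0.78 ± 0.17 in IL-2 cells (adjusted p = 0.00567). Eif2b5, the catalytic epsilon subunit, gave 0.59 in IL-12 and 0.32 in IL-2 cells, and Eif2b4, the delta subunit, 0.43 and 0.41. In IL-2 cells the call of Eif2b5 was kept only when naive replicate 1 was the array left out (adjusted p up to 0.276 otherwise). That of Eif2b4 was lost without naive replicate 1 or either IL-2 array (up to 0.136). In IL-12 cells that of Eif2b4 was lost without IL-12 replicate 2 (0.0698).

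**Figure D3:**
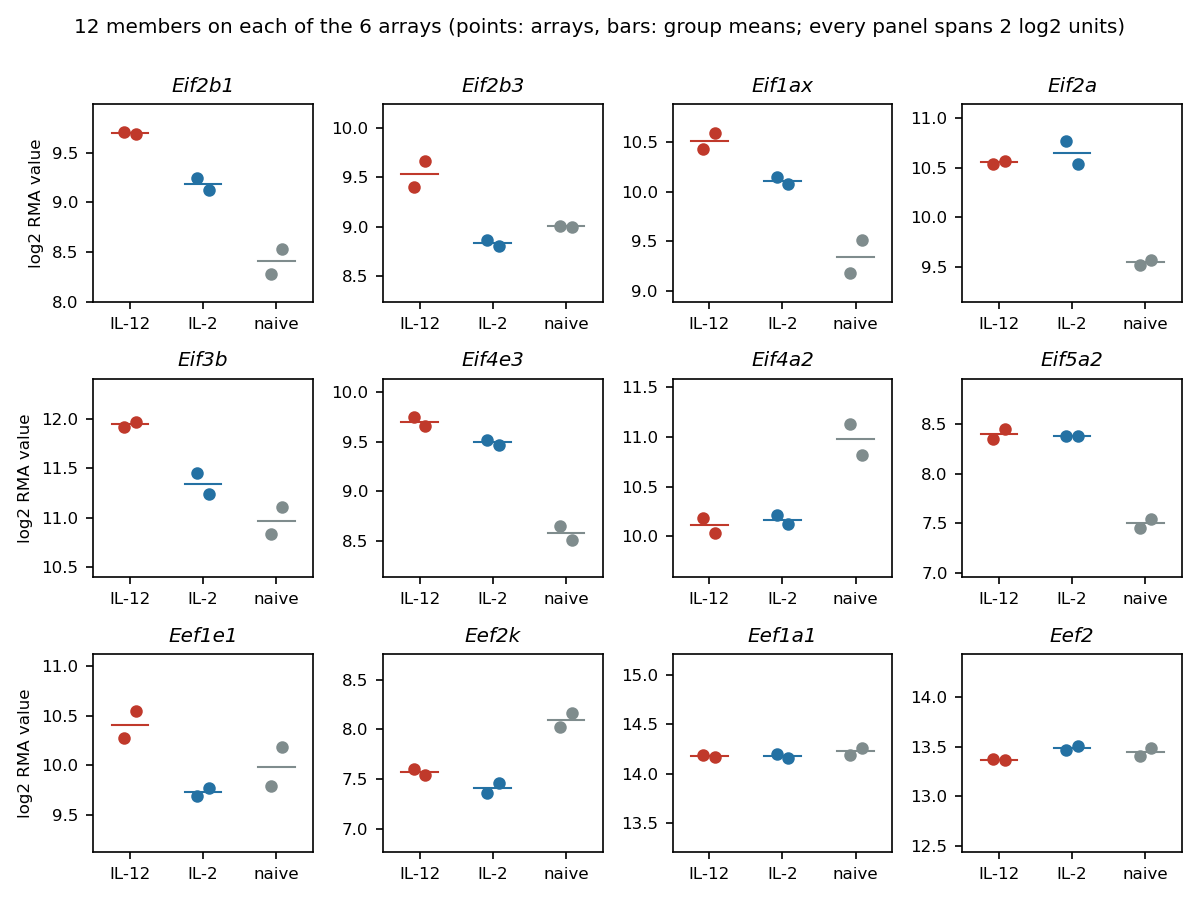
Log2 value (y axis, 2 log2 units in every panel) of 12 factors on each of the 6 arrays, with points for arrays and bars for group means, in IL-12, IL-2 and naive cells from left to right. Eif2b1 falls into 3 separate steps, Eif2b3 and Eef1e1 stand out in IL-12 cells, Eif4a2 and Eef2k are highest in naive cells, and Eef1a1 and Eef2 lie level.

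eIF3, the large scaffold that holds the small subunit and the mRNA together, was divided. Of 11 tested subunits, 5 were higher in IL-12 than in naive cells (median log2 fold change 0.17), 4 in IL-2 than in naive cells (median 0.24) and 1 in IL-12 than in IL-2 cells (median 0.09), with none called lower. The shares higher were 45.5%, 36.4% and 9.09%, beside 31.2%, 25.8% and 9.82% of all tested genes. Eif3b, a scaffold subunit, read 11.92 and 11.97 in IL-12 cells, 11.46 and 11.24 in IL-2 cells and 10.83 and 11.11 in naive cells. The 3 groups did not overlap, with 0.60 ± 0.13 for IL-12 over IL-2 cells (adjusted p = 0.0132, but 0.131 without IL-2 replicate 2, 0.0577 without IL-12 replicate 1 and 0.0845 without IL-12 replicate 2) and 0.97 ± 0.13 for IL-12 over naive cells (adjusted p = 0.000241). Eif3i and Eif3l, 2 further subunits, rose over naive cells by 0.82 and 0.76 in IL-12 cells and by 0.67 and 0.64 in IL-2 cells (adjusted p between 0.000541 and 0.00305). Eif3c, a core subunit, rose by 0.49 in IL-12 cells (adjusted p = 0.00344) and Eif3d, a subunit that can itself bind caps, by 0.45 (adjusted p = 0.0166, up to 0.0722 without naive replicate 1 or either IL-12 array). In IL-2 over naive cells the calls of Eif3b (0.38, adjusted p = 0.0406) and Eif3c (0.30, adjusted p = 0.0458) were kept only when naive replicate 2 was the array left out, with adjusted p up to 0.264 and 0.294 otherwise. The other 6 subunits passed no test with the main settings, and 3 of them, Eif3e, Eif3f and Eif3h, are the TOP members of the complex. Without naive replicate 2, Eif3m stood 0.49 above naive cells in IL-2 cells and 0.43 in IL-12 cells. With all arrays it gave 0.24 and 0.17. Among the 8 subunits outside the TOP class 5 were higher in IL-12 than in naive cells.

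The eIF4 group, which binds the cap and unwinds the leader, held changes in both directions. Of 11 tested, 6 were higher and 2 lower in IL-12 than in naive cells (median log2 fold change 0.49), with 5 above and 1 below for IL-2 against naive cells (median 0.22) and 2 higher in IL-12 than in IL-2 cells (median 0.18). The shares higher were 54.5%, 45.5% and 18.2%, beside 31.2%, 25.8% and 9.82% of all tested genes. Those lower than naive cells were 18.2% and 9.09%, beside 26.7% and 19.9%. These counts include Eif4e as higher in every comparison. Eif4a1 and Eif4a2 encode closely related RNA helicases, and they moved apart. Cross-hybridisation between them was not checked. Eif4a2 read 10.19 and 10.03 in IL-12 cells, 10.21 and 10.12 in IL-2 cells and 11.13 and 10.82 in naive cells. Both primed groups overlapped and lay below naive cells, by −0.87 ± 0.13 in IL-12 cells (adjusted p = 0.00049) and −0.81 ± 0.13 in IL-2 cells (adjusted p = 0.00112). Eif4a1 read 13.15 and 13.26 in IL-12 cells, 12.94 and 12.93 in IL-2 cells and 12.65 and 12.78 in naive cells. It was higher in IL-12 than in naive cells (0.49 ± 0.10, adjusted p = 0.00357). Neither IL-2 against naive cells (0.22, adjusted p = 0.116) nor IL-12 against IL-2 cells (0.27, adjusted p = 0.104) passed. Eif4a3, the helicase relative that sits in the exon junction complex, was higher by 0.89 in IL-12 than in naive cells (adjusted p = 0.000155), by 0.48 in IL-2 than in naive cells (adjusted p = 0.00657, but 0.0763 without IL-2 replicate 1) and by 0.40 in IL-12 than in IL-2 cells (adjusted p = 0.0313, up to 0.245 without 1 array and lost without any of the 4 primed arrays).

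The cap-binding proteins differed among themselves. Eif4e3, a relative of the main cap-binding protein, read 9.75 and 9.66 in IL-12 cells, 9.52 and 9.47 in IL-2 cells and 8.65 and 8.51 in naive cells. It was higher than in naive cells by 1.12 ± 0.11 in IL-12 cells (adjusted p = 3.05e-05) and by 0.91 ± 0.11 in IL-2 cells (adjusted p = 0.000176). IL-12 against IL-2 (0.21, adjusted p = 0.192) did not pass. Eif4e2, a cap-binding protein known as a translational repressor, was higher by 0.52 in IL-12 cells and 0.46 in IL-2 cells (adjusted p = 0.00201 and 0.00538, the second 0.0604 without IL-2 replicate 1). Eif4e, the main cap-binding protein, read 10.02 and 10.21 in IL-12 cells, 9.52 and 9.44 in IL-2 cells and 9.07 and 9.24 in naive cells on the probe set used. On that probe set it was 0.64 ± 0.12 higher in IL-12 than in IL-2 cells (adjusted p = 0.00622, but 0.0721 without IL-2 replicate 2 and 0.0598 without IL-12 replicate 2), 0.96 ± 0.12 higher in IL-12 than in naive cells (adjusted p = 0.000139) and 0.32 ± 0.12 higher in IL-2 cells than in naive cells (adjusted p = 0.0473, up to 0.224 and kept only when naive replicate 2 was the array left out). Its probe set among neighbours on chromosome 3 read 7.29 and 7.53 in IL-12 cells, 7.26 and 7.20 in IL-2 cells and 7.81 and 7.75 in naive cells. The order against naive cells is reversed there, so no direction is given for Eif4e. Eif4h, a cofactor of the helicase, was higher by 0.65 in IL-12 cells (adjusted p = 0.00131) and 0.49 in IL-2 cells (adjusted p = 0.00835, but 0.0536 and 0.0575 without IL-2 replicate 1 and 2). Eif4g3, a scaffold that links cap binding and helicase, was lower in IL-12 than in naive cells (−0.47, adjusted p = 0.0142, but 0.074 without IL-12 replicate 1). Eif4g2, a scaffold without the cap-binding protein's site, and Eif4e1b, a germline relative, passed no test, nor did Eif4b, the TOP member of the group.

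Both eIF5A genes, whose protein carries hypusine and helps ribosomes through difficult peptide bonds, were higher in each primed group than in naive cells. Eif5a2 read 8.35 and 8.45 in IL-12 cells, 8.39 and 8.38 in IL-2 cells and 7.46 and 7.54 in naive cells. The primed groups overlapped, at 0.90 ± 0.10 (IL-12, adjusted p = 9.32e-05) and 0.88 ± 0.10 (IL-2, adjusted p = 0.000174) above naive cells. Eif5a read 13.19 and 13.22 in IL-12 cells, 12.87 and 12.60 in IL-2 cells and 11.76 and 12.43 in naive cells. Its naive arrays lay far apart. It was higher by 1.11 ± 0.20 in IL-12 cells (adjusted p = 0.00134) and by 0.64 ± 0.20 in IL-2 cells (adjusted p = 0.0276, but 0.106 without naive replicate 1, 0.173 without IL-2 replicate 1 and 0.26 with its probe set on chromosome 11). The chromosome 11 probe set of Eif5a gave smaller differences from naive cells, 0.45 in IL-12 cells and 0.17 in IL-2 cells. Dhps and Dohh, the enzymes that make hypusine, were higher in IL-12 than in naive cells by 0.43 and 0.52 (adjusted p = 0.0215 and 0.027) and passed no other test.

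The elongation factors proper did not pass the test in any comparison. Eef1a1, which carries aminoacyl-tRNA to the ribosome, read 14.19 and 14.17 in IL-12 cells, 14.20 and 14.16 in IL-2 cells and 14.19 and 14.26 in naive cells. Its log2 fold change had a 95% interval of −0.22 to 0.22 for IL-12 against IL-2 cells, −0.27 to 0.17 for IL-2 against naive cells and −0.27 to 0.18 for IL-12 against naive cells. Eef2, the translocase, read 13.38 and 13.36 in IL-12 cells, 13.47 and 13.51 in IL-2 cells and 13.41 and 13.49 in naive cells. The IL-12 arrays were the lowest by a small margin, with −0.12 against IL-2 cells (adjusted p = 0.444) and −0.08 against naive cells (adjusted p = 0.521). Eef1b2 and Eef1d, exchange factors for eEF1A, and Eef1a2, the form of muscle and nerve, had adjusted p-values of 0.0664 or more.

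Proteins that act on these factors or sit beside them changed in both directions. Of 9 tested, 5 were higher and 2 lower in IL-12 than in naive cells, with 3 above and 3 below for IL-2 against naive cells, and 2 higher in IL-12 than in IL-2 cells. The shares higher were 55.6%, 33.3% and 22.2%, beside 31.2%, 25.8% and 9.82% of all tested genes. Those lower than naive cells were 22.2% and 33.3%, beside 26.7% and 19.9%. Eef2k, the kinase that inhibits eEF2, read 7.60 and 7.54 in IL-12 cells, 7.35 and 7.46 in IL-2 cells and 8.03 and 8.16 in naive cells. It was lower than in naive cells by −0.52 ± 0.11 in IL-12 cells (adjusted p = 0.00268) and −0.69 ± 0.11 in IL-2 cells (adjusted p = 0.000944). Its second probe set gave differences of −0.65 and −0.60. Eef2kmt, a lysine methyltransferase of eEF2, fell beside it, with −0.46 in IL-12 cells (adjusted p = 0.0053) and −0.65 in IL-2 cells (adjusted p = 0.0013). Eef1akmt1, a lysine methyltransferase of eEF1A, read 9.28 and 9.07 in IL-12 cells, 9.06 and 9.05 in IL-2 cells and 7.68 and 8.38 in naive cells. It rose over naive cells by 1.14 ± 0.20 in IL-12 cells (adjusted p = 0.00123) and 1.02 ± 0.20 in IL-2 cells (adjusted p = 0.00326). Eef1akmt2 of the same family passed no test with the main settings. After quantile normalization it was higher in IL-12 than in naive cells (0.42, adjusted p = 0.0182). Eef1aknmt, which methylates the first residue and a lysine of eEF1A, read 7.72 and 7.89 in IL-12 cells, 7.40 and 7.38 in IL-2 cells and 7.71 and 7.92 in naive cells. IL-2 cells were the low group, by 0.42 ± 0.12 for IL-12 over IL-2 cells (adjusted p = 0.0334, up to 0.221 without 1 array and lost without any of the 4 primed arrays) and by −0.43 ± 0.12 for IL-2 against naive cells (adjusted p = 0.0154, up to 0.0862 without either IL-2 array).

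Eef1e1, a scaffold of the aminoacyl-tRNA synthetase complex, read 10.27 and 10.55 in IL-12 cells, 9.70 and 9.77 in IL-2 cells and 9.79 and 10.18 in naive cells. It was 0.68 ± 0.15 higher in IL-12 than in IL-2 cells (adjusted p = 0.0152, but 0.101 and 0.0868 without IL-2 replicate 1 and 2 and 0.116 without IL-12 replicate 2). Its rise over naive cells in IL-12 cells (0.43, adjusted p = 0.038) was lost without naive replicate 1, either IL-2 array or IL-12 replicate 2 (up to 0.235). Eif2d, which can place tRNA on the small subunit and recycle it, rose over naive cells by 0.85 in IL-12 cells (adjusted p = 0.000125) and 0.54 in IL-2 cells (adjusted p = 0.00262). Eif4enif1, which carries eIF4E into the nucleus, rose by 0.49 (adjusted p = 0.00273) and 0.36 (adjusted p = 0.0172, up to 0.106 without either IL-2 array). Eif1ad, a relative of eIF1A, was higher in IL-12 than in naive cells by 0.46 (adjusted p = 0.0287, up to 0.103 and kept only when naive replicate 2 was the array left out).

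The TOP factors, set side by side with the others, passed no test. Of 8 TOP factors 0 were called in any comparison, with median log2 fold changes of −0.12 for IL-12 against IL-2 cells, 0.06 for IL-2 against naive cells and −0.06 for IL-12 against naive cells. At an unadjusted p under 0.05 limma counted 1 higher (Eef1d, 0.31, IL-12 against IL-2) and none in the comparisons with naive cells. Over all 11147 tested genes that threshold gave 1915 higher and 2008 lower in IL-12 against IL-2 cells. Against naive cells it gave 3284 and 2620 in IL-2 cells and 3731 and 3230 in IL-12 cells. All the calls lay among the 44 other factors, with medians of 0.18, 0.31 and 0.49 in the same order. Of these 44, 20.5%, 56.8% and 75% were called either way, beside 20.8%, 45.7% and 57.9% of all tested genes. The 95% intervals of the 8 TOP factors lay between −0.37 and 0.46 in IL-12 against naive cells. Eef1d was called higher in IL-12 than in IL-2 cells with array weights (adjusted p = 0.0217), with only the compared groups or without either naive array (0.0343), and Eif3h higher in IL-2 cells than in naive cells without naive replicate 2 (0.0487). No test of the difference between the sets was made, and the TOP list was set with earlier results of these data known. Eif2s3x, the 1 of 37 other factors with a pyrimidine run from its annotated start onward, was higher in IL-12 than in naive cells. Its log2 fold change was 0.41 (adjusted p = 0.0177), with the limits given above.

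**Figure D4:**
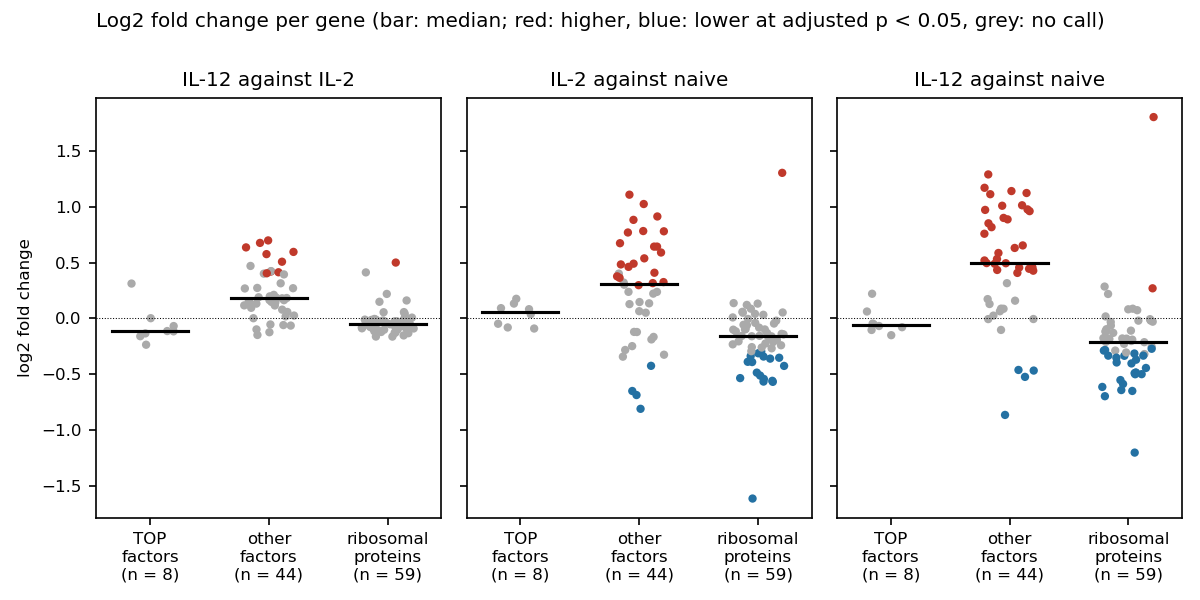
Log2 fold change (y axis) of each of 8 TOP factors, 44 other factors and 59 cytosolic ribosomal proteins, with bars for medians, in IL-12 against IL-2, IL-2 against naive and IL-12 against naive cells. TOP factors are grey throughout, the other factors reach 1.29, and many ribosomal proteins are blue in the comparisons with naive cells.

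Ribosomal proteins, which share the TOP motif, had more calls below naive cells than above. Of 59 tested, 2 were higher and 24 lower in IL-12 than in naive cells, with a median log2 fold change of −0.21. The shares were 3.39% and 40.7%, beside 31.2% and 26.7% of all tested genes. In IL-2 against naive cells 1 was above and 17 below (1.69% and 28.8%, beside 25.8% and 19.9%, median −0.16). Between the cytokines, 1 was higher and 0 lower in IL-12 than in IL-2 cells (1.69% and 0%, beside 9.82% and 11.0%, median −0.05). At an unadjusted p under 0.05 limma counted 2 higher and 0 lower in that comparison, beside 1915 and 2008 of all 11147 tested genes. Rpl12 of the large subunit read 8.26 and 8.50 in IL-12 cells, 7.95 and 7.99 in IL-2 cells and 9.75 and 9.42 in naive cells. Against naive cells the log2 fold change was −1.20 ± 0.14 in IL-12 cells (adjusted p = 0.000105) and −1.61 ± 0.14 in IL-2 cells (adjusted p = 2.93e-05). Rps21 and Rps29 of the small subunit fell by 0.70 and 0.64 in IL-12 cells and by 0.57 and 0.56 in IL-2 cells. Rps27l, a p53-responsive relative of Rps27, went the other way, with 11.77 and 11.95 in IL-12 cells, 11.39 and 11.34 in IL-2 cells and 9.90 and 10.22 in naive cells (1.80 ± 0.13 and 1.30 ± 0.13 over naive cells). The count of ribosomal proteins lower in IL-2 cells than in naive cells was 6 without IL-2 replicate 2, 7 without IL-2 replicate 1 and 28 after quantile normalization. That in IL-12 cells was 14 without either IL-12 array and 36 after quantile normalization. Over all genes, fewer were likewise called lower without any 1 of these arrays. After quantile normalization 2261 of all genes were lower in IL-2 cells (2222 before) and 2851 in IL-12 cells (2972 before). Genes of ribosomal proteins and Eef1a1 have many near-identical processed copies in the genome, and probe sets were not checked for them.

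Regulators and partners of the factors changed in both directions, with shares near or below those of all genes. Of 44 tested, 12 were higher and 10 lower in IL-12 than in naive cells (27.3% and 22.7%, beside 31.2% and 26.7% of all genes). In IL-2 against naive cells 6 were above and 9 below (34.1% called, beside 45.7%), and 4 were higher and 2 lower in IL-12 than in IL-2 cells (13.6% called, beside 20.8%). Pdcd4, an inhibitor of the eIF4A helicase, read 11.36 and 11.24 in IL-12 cells, 12.27 and 12.13 in IL-2 cells and 12.41 and 12.59 in naive cells. IL-12 cells stood apart from both, at −0.90 ± 0.11 against IL-2 cells (adjusted p = 0.00108) and −1.20 ± 0.11 against naive cells (adjusted p = 3.52e-05). IL-2 against naive cells gave −0.30 (adjusted p = 0.062). Eif4ebp1, the mTORC1-controlled inhibitor of eIF4E, was higher than in naive cells by 1.25 ± 0.21 in IL-12 cells (adjusted p = 0.000991) and 0.69 ± 0.21 in IL-2 cells (adjusted p = 0.0254). Etf1, the release factor eRF1, was higher by 1.05 in IL-12 than in naive cells (adjusted p = 0.000133) and by 0.50 in IL-12 than in IL-2 cells (adjusted p = 0.0251). Abce1, which recycles ribosomes, Rheb, the activator of mTORC1, and Eefsec, the selenocysteine elongation factor, were higher in IL-12 than in IL-2 cells by 0.53, 0.52 and 0.58. Rptor, the mTORC1 scaffold, was lower than in naive cells by −1.04 in IL-12 cells (adjusted p = 4.44e-05) and −0.74 in IL-2 cells (adjusted p = 0.000557). Dph5 and Dph3, which serve in making the diphthamide of eEF2, moved apart in IL-2 against naive cells (−1.07 and 0.58). The same held in IL-12 against naive cells (−0.86 and 0.66). Eif2ak3, the endoplasmic reticulum stress kinase of eIF2, was higher than in naive cells by 0.80 in IL-12 cells and 0.67 in IL-2 cells. For Eif2ak3, IL-12 against IL-2 cells gave 0.13 (adjusted p = 0.385). Mcts2, a relative of a tRNA-loading factor, was lower in IL-12 than in naive cells by −1.03 (adjusted p = 0.0138), with naive arrays at 9.67 and 8.55.

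These counts also moved with single arrays, and in each fit named here the counts over all genes moved the same way. In IL-12 against naive cells 5 regulators were higher and 6 lower without IL-12 replicate 2. In IL-2 against naive cells they were 1 and 4 without IL-2 replicate 1, 4 and 2 without IL-2 replicate 2, and 11 and 10 without naive replicate 2. Between the cytokines they were 1 and 1 without IL-2 replicate 1, 0 and 1 without IL-2 replicate 2, 2 and 1 without either IL-12 array, and 8 and 6 without either naive array.

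A second sequence feature was read in the same promoter windows, the letters CACGTG, which are their own reverse complement and are known as the E-box bound by MYC and MAX. They were found in a window of 12 of 42 factors (28.6%), against 8.09% of all 27025 genes and 11.8% of the 8950 tested genes with a window. A gene with several annotated starts has several windows and more room for a match. The stretches of 4 factors are shown in lower case with CACGTG in capitals: Eif5a2 at chr3:28781127-28781176 (plus), Eif4h at chr5:134639480-134639519 (minus), Eif5a at chr11:69921437-69921476 (minus), and the 2 matches of Eif4e at chr3:138527028-138527067 and chr3:138527184-138527223 (plus).
Eif5a2: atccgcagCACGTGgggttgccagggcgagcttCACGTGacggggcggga
Eif4h: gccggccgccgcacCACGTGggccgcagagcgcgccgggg
Eif5a: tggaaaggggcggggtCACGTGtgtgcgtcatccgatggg
Eif4e: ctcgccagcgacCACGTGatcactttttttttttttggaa
Eif4e: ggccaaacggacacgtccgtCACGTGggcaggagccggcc
Eif5a2, Eif4h and Eif5a were higher in both primed groups than in naive cells, with the limits given above for Eif4h and Eif5a. The letters also occurred at Eef2, Eif3f, Eif3k, Eif3a and Eif1b, which passed no test, at Eef2k, which fell, at Eif4a1 and at Eef1aknmt. Eif2b1, Eif2a and Eif1ax, among the factors with the largest rises over naive cells, had no match in their windows, which says only that these letters are not there.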

How the data were processed

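Total RNA of 6 samples (IL-12, IL-2 and naive, 2 each) was hybridised to Affymetrix arrays. The authors deposited log2 values of 35556 probe sets. RMA is named for them in the submitters' processing notes, and its version is not given in the sources used here. The table had 0 value columns outside the 6 samples. GEO's platform annotation, which can be old, gave 21789 probe sets 1 gene symbol, 1621 several and 12146 none. The brightest probe set by mean stood for a gene. A gene entered the test if 2 or more of the 6 arrays exceeded the 50th percentile of the whole table (6.83). All 6 arrays were fitted together, with 1 mean per group, using limma 3.58.1 in R 4.3.3 (lmFit, eBayes; two-sided; degrees of freedom 3 residual, 5.62 prior). Benjamini-Hochberg adjustment ran over all tested genes, with a threshold of 0.05. All adjusted p-values and intervals are limma's. The fit was first tested on simulated data with known changes in 200 of 11147 genes, set in IL-12 against IL-2 cells. It recovered 21% of changes of 0.5 log2, 94.4% of those of 1 and 100% of those of 2. Of its calls, 4.05% were false. Changes near 0.5 log2 were thus mostly missed.

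Members, lists and markers were chosen with earlier results of these data known. Values on every array are given for the 8 called members with the largest change per comparison whose arrays do not overlap and for Eef1a1, Eef2, Eif4e, Eif4a1, Eif5a and Eif6; of each pathway list up to 5 called genes per comparison are named, besides Dhps and Dohh, chosen after their values were seen. Replicate numbers were given in accession order. Alternatives covered the filter, probe sets, normalization, variance model, array weights, samples in the fit, a replicate block and each array left out. Probe sets on the gene's own chromosome (a probe set counted as lying elsewhere, as 621 of 21698 did, where at least 15 of its neighbours, 10 read on each side in ID order, shared a chromosome other than the gene's) were an alternative chosen after seeing the data.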

Additional observations from a re-analysis of the deposited data

How the results depend on the processing

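Over the 16 alternatives, 2288 of 2469 values for single factors kept their side of the threshold, 40 of them with the sign turned and no call in either setting, 126 lost a call, 52 gained one, and 3 turned sign with a call in at least 1 of the settings. All 3 concerned Eif4e: in IL-2 against naive cells it gave −0.0745 with the mean of its probe sets and −0.55 with its own-chromosome probe set, and −0.37 with that probe set in IL-12 against naive cells. The factors higher in IL-12 than in IL-2 cells numbered 18 with array weights, 16 with only the compared groups, and 0 to 16 with 1 array left out, where the lone array of a group is assumed to vary like the others. Those higher in IL-2 cells than in naive cells numbered 10 to 25 with 1 array left out. Those lower in IL-2 cells than in naive cells numbered 1 with the filter at the 75th percentile, which left 43 factors, and 7 after quantile normalization, and those lower in IL-12 than in naive cells 2 with that filter; the cause of the shift under array weights, the smaller fit and quantile normalization was not tested. No factor was lower in IL-12 than in IL-2 cells under any of them. The replicate block gave 8 factors higher in IL-12 than in IL-2 cells. It gave 20 higher and 4 lower in IL-2 cells than in naive cells, and 29 higher and 4 lower in IL-12 than in naive cells. Replicate numbers only name the arrays and do not pair them (correlation of deviations 0.153, 0.015 and −0.022 for the 3 pairs of groups). Over all genes, IL-12 against IL-2 gave 1095 higher and 1226 lower, 897 and 1613 with median centring, and 1099 and 971 after quantile normalization. The calls over all genes also rose, to 1853 and 1986 with array weights and to 1695 and 1838 with only the compared groups. With 2 arrays a group, a missing call does not show equal levels.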
